A study of Mus musculus with 7 samples.

Results

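The set described here holds 10 of the 23284 gene symbols counted in each library, namely Plk2, Sesn2, Polk, Cdkn1a, Mdm2, Trp53inp1, Ccng1, Bbc3, Bax and Pmaip1. They were taken by symbol as genes known to be switched on by the transcription factor p53, several of which act in programmed cell death. Hand2 null and wild-type canals were compared over 7 libraries. The Hand2 null libraries (4 pools, replicates 1 to 4) came from Hand2 d/d embryos, in which Cre recombination in the germline had removed all coding sequence of Hand2, so the loss is present in every cell and not only in the heart. The wild-type libraries (3 pools, replicates 2 to 4) came from embryos with intact Hand2, and both genotypes were of the outbred NMRI stock. Each library was a pool of 4 atrioventricular canals, the segment of the looping heart tube where the valve cushions form, dissected at 18 to 23 somites (embryonic day 9.5 by the titles, slightly earlier by the stage label), and pools were balanced for somite stage and sex. Of 4 pools prepared for each genotype, 1 of the wild type had RNA of lower quality and went no further. HAND2 is a transcription factor of the basic helix-loop-helix class, and the title of the series concerns its targets in valve development.

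p53 is a transcription factor that is made continuously and kept scarce because MDM2 marks it for destruction. Damage to DNA and several other kinds of stress stabilise the protein, so the messenger RNA of p53 need not change when its targets do. The targets used here stop the cell cycle (Cdkn1a), feed back on p53 (Mdm2, Ccng1, Trp53inp1) or copy past damaged DNA (Polk). Others restrain growth under nutrient and oxidative stress (Sesn2) or phosphorylate centriole and synaptic proteins (Plk2). Bax, Bbc3 and Pmaip1 act in opening the outer mitochondrial membrane in apoptosis. Several of the targets are also driven by other factors. Sesn2 is a known target of ATF4 in amino acid stress, and Plk2 was first known as a serum-induced early response gene.

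p53 binds DNA as a tetramer that reads a pair of half-sites, each with a C and a G around A or T bases, purines before and pyrimidines after. RefSeq start-site windows (GRCm38.p6, 250 bases before to 50 after each annotated start) were found for 8 of the 10 genes, in 12 windows; Trp53inp1 and Pmaip1 had none. A p53 half-site was present in 5 of the 12 windows, 1 in each of 5 genes (Cdkn1a, Mdm2, Ccng1, Polk and Bax). Over all 32851 windows the share was 8.36%. A pair of half-sites at most 13 bases apart was present in 1 of the 12 windows, in Cdkn1a, and in 0.0731% of all windows. The half-site reads the same on both strands. The stretches below are shown because they hold those matches, with the matched bases in capitals, each on the strand of its gene.
Cdkn1a, chr17:29090876-29090967, plus strand: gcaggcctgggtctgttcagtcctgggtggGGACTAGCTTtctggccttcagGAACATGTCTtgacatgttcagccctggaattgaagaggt
Ccng1, chr11:40755432-40755501, minus strand: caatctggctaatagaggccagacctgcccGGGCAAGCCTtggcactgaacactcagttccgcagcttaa
Mdm2, chr10:117710905-117710974, minus strand: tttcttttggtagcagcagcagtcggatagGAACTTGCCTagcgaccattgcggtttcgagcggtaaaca
Bax, chr7:45467060-45467129, minus strand: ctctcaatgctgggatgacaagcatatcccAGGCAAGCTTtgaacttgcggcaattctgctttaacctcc
Polk, chr13:96519379-96519437, minus strand: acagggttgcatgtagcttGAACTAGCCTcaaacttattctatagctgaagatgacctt
The Cdkn1a pair begins 73 bases upstream of the distal annotated start and 2863 bases upstream of the downstream one. Its second half-site is followed at once by a further run with a CATG core, which misses the consensus and is in lower case. The Polk match lies in the window of the downstream annotated start (chr13:96519187). The window of the upstream Polk start (chr13:96542579) held none.

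The windows of Plk2, Sesn2 and Bbc3 held no p53 half-site. Plk2 held the cyclic AMP response motif TGACGTCA, shown in capitals, 62 bases upstream of its start, a motif found on either strand in 1.79% of all windows.
Plk2, chr13:110394952-110395019, plus strand: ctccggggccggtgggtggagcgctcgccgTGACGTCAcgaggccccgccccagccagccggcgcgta
The motif TGATGNAA, part of the ATF4 composite element, was searched on both strands and matched 1 gene window, in Polk, and 3.97% of all windows. The CArG box of serum response factor matched none of the 12 windows and 1.63% of all. These matches are letters in a short window and say nothing about binding.

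The libraries held 28667561 to 38938029 reads in genes for null canals, against 27905601 to 44860753 for wild-type canals, and a count of 3 reads corresponded to between 0.0669 and 0.1075 CPM (reads scaled to a common library total). Hand2 had 7 to 26 reads in null pools, against 1194 to 2123 in wild-type pools, so every library matched its label. Markers of heart muscle and of the canal were present, with summed levels of 11920 to 14930 CPM in null against 11810 to 13910 CPM in wild-type pools for 4 muscle genes, and 148.6 to 191.6 CPM against 131.3 to 229 CPM for Tbx2, Tbx3 and Bmp2. Some other markers moved with genotype. Summed levels of 4 endocardial genes were 248.9 to 272.6 CPM in null against 160.4 to 173.6 CPM in wild-type pools (Kdr and Pecam1 called higher), and those of 4 foregut endoderm genes 138.2 to 183.8 CPM against 83.2 to 114.9 CPM, nearly all of it the keratin Krt8 (called higher), with Foxa2 and Shh too scarce to test. Reads aligning to several places, which are not in the gene counts, were 9.08% to 11.64% in null against 12.22% to 13.81% in wild-type pools. The part of these differences in the results that follow was not tested. The 7 erythroid marker genes summed to 5602 to 14510 CPM in null against 9329 to 22040 CPM in wild-type pools. Of these genes, Hba-a1 and Hba-a2 were at 0 in all pools and add nothing to the sums. As reads aligning to several places are not counted, these 0 values need not mean absence. Proepicardial markers summed to 56.0 to 68.6 CPM in null against 40.0 to 59.0 CPM in wild-type pools, and those of neural crest and of macrophages each stayed at or below 3.23 CPM in every pool. In such bulk tissue, fewer cells of a type and less RNA per cell cannot be told apart.

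Of the 10 genes, 3 rose in null canals and none fell, by the quasi-likelihood test of edgeR with Benjamini-Hochberg adjustment over all 14290 tested genes and a threshold of 0.05. They were Plk2, Sesn2 and Polk. Over all tested genes, 4.11% were called higher and 2.13% lower, 6.24% in either direction. All 10 genes passed the filter on low counts. The median of their log2 fold changes (null over wild type, here also called log2 ratios) was 0.79, against 0.02 for all tested genes, and 9 of the 10 estimates were above 0. An unadjusted p under 0.05 was found for 5 of them, and for 24.4% of all tested genes. In 4 of the 10 (Plk2, Sesn2, Polk and Pmaip1) every null library lay above every wild-type library, an arrangement seen in 11.6% of all tested genes. The 10 genes and the lists below were chosen with earlier results of these data known. These shares therefore describe the genes and are no test of the set. The number called was 1 without null pool 1, null pool 2 or wild-type pool 3, and 2 without wild-type pool 2 or 4, while it was 3 without null pool 3 or 4. Without null pool 4 the 3 were Plk2, Sesn2 and Cdkn1a, Polk having lost its call. Over all genes the numbers called higher and lower ran from 210 and 46 without wild-type pool 2 to 946 and 652 without null pool 3.

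**Figure D1:**
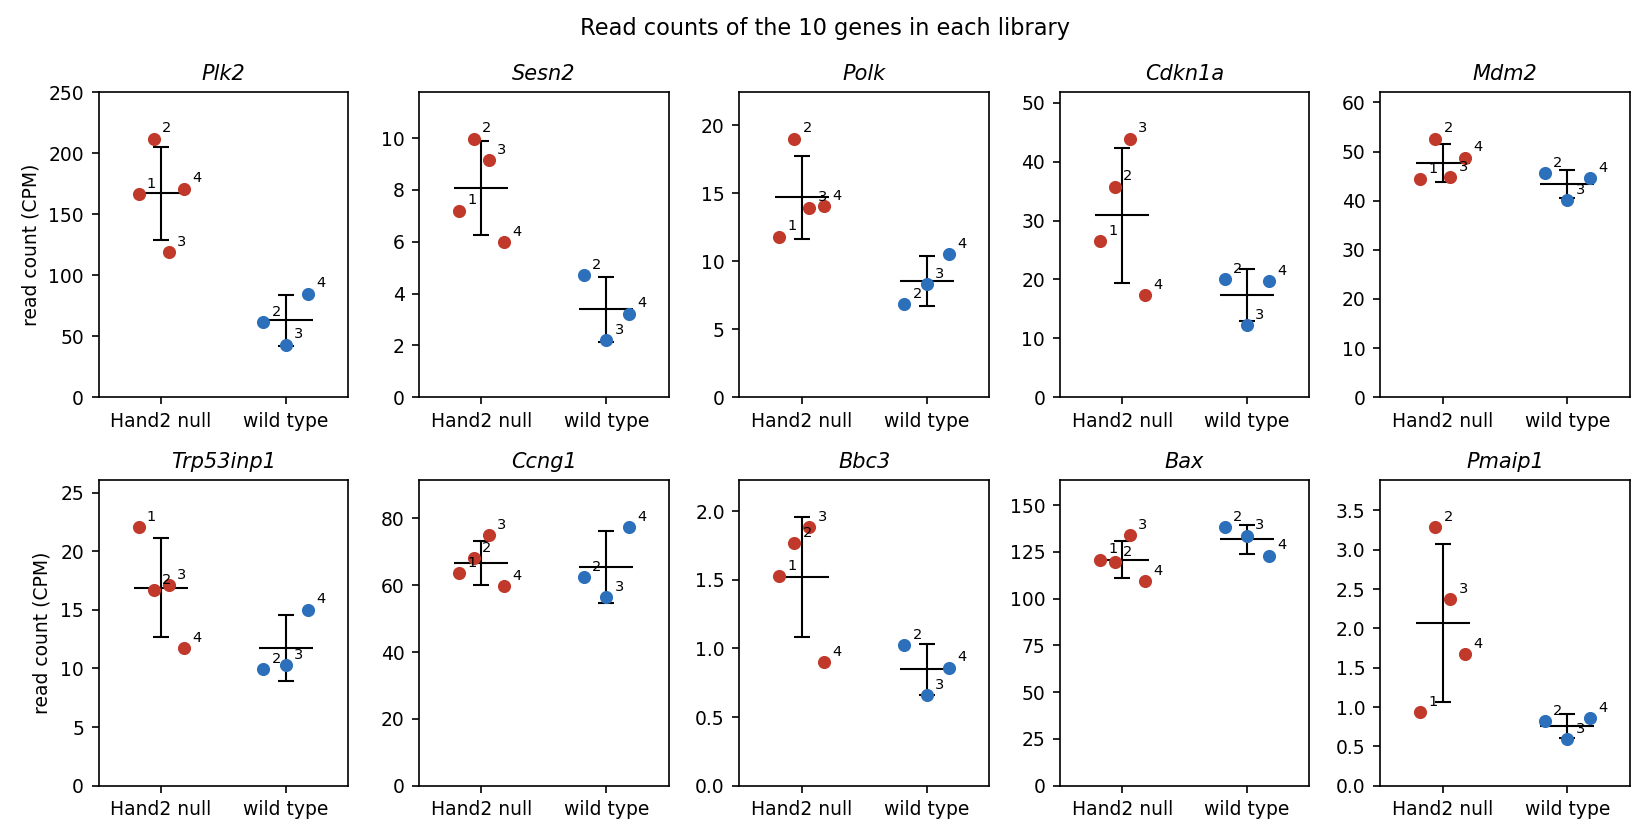
Read counts in CPM (vertical axes, each from 0) of the 10 genes in every library, with Hand2 null (red) left of wild type (blue), numbers giving the replicate and bars the mean ± SD. Plk2, Sesn2, Polk and Pmaip1 show no overlap between genotypes, while Mdm2, Ccng1 and Bax overlap.

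Plk2, a polo-like kinase, rose in null canals and had the smallest adjusted p of the set. It had 166, 212, 119 and 171 CPM in null replicates 1 to 4, against 61.5, 43.0 and 84.9 CPM in wild-type replicates 2 to 4. The groups did not overlap, with null pool 3 the lowest of its group and wild-type pool 4 the highest of its own. The mean was 167 ± 38.1 CPM in null and 63.1 ± 21.0 CPM in wild-type canals (SD, n = 4 and 3), a log2 ratio of 1.38 (SE 0.226; adjusted p = 0.00433, edgeR), or 2.61-fold. Plk2 was called in all 7 fits that left out 1 library, with log2 fold changes of 1.17 to 1.63 and adjusted p of 0.00132 to 0.0339.

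Of 13 tested family relatives of the 10 genes, 1 rose and 1 fell, where 4.11% of all tested genes were called higher and 2.13% lower. Their median log2 ratio was 0.33, and they are given beside their relatives. The other tested kinases of the polo family were not called. Plk1, which drives mitosis, had 111 ± 32.4 CPM in null and 112 ± 14.2 CPM in wild-type canals (log2 ratio -0.03, SE 0.201). Plk4, which controls centriole duplication, had -0.27 (SE 0.141), and the scarce Plk3 -0.96 (SE 0.521), at 0.673 ± 0.378 CPM in null and 1.27 ± 0.317 CPM in wild type. Their differences from Plk2 were not tested.

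Cdkn1a encodes p21, the inhibitor of cyclin-dependent kinases through which p53 halts the cycle. It had 26.5, 35.8, 43.9 and 17.3 CPM in null replicates 1 to 4, against 20.1, 12.2 and 19.7 CPM in wild-type replicates 2 to 4. Null replicate 4 lay within the wild-type range, and the other null libraries lay above it. The log2 fold change was 0.82 (SE 0.287, 95% interval 0.19 to 1.44), which did not pass after adjustment (edgeR adjusted p = 0.109). Without null pool 4 it was 1.00 and passed (adjusted p = 0.0224). DESeq2 on all libraries also called it (0.80, adjusted p = 0.0436). The highest null library had 2.54 times the CPM of the lowest, the widest ratio within null canals after the 3.51 of Pmaip1.

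Of the relatives of Cdkn1a, 1 was called. Cdkn1c, the p57 inhibitor, fell to 503 ± 44.9 CPM in null, against 1090 ± 179 CPM in wild type (SD, n = 4 and 3; log2 ratio -1.14, SE 0.146, edgeR adjusted p = 0.000932), and kept its call with any 1 library left out. Cdkn1b, the p27 inhibitor, had 110 ± 34.8 CPM in null and 77.6 ± 11.9 CPM in wild type, and did not pass (0.50, SE 0.245, adjusted p = 0.235).

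Genes that feed back on p53 were not called. Mdm2, the ubiquitin ligase that degrades p53, had 44.3, 52.6, 44.7 and 48.7 CPM in null replicates 1 to 4, against 45.6, 40.1 and 44.6 CPM in wild-type replicates 2 to 4. The groups overlapped, and the 95% interval of the log2 fold change ran from -0.16 to 0.39 around 0.11, so a doubling lay outside it. Ccng1, cyclin G1, had 63.7, 68.0, 75.1 and 59.7 CPM in null replicates, against 62.5, 56.3 and 77.4 CPM in wild-type replicates (log2 fold change 0.01, 95% interval -0.32 to 0.34). Its highest library of all was wild-type pool 4.

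Trp53inp1, a nuclear and autophagy-linked protein that promotes p53 phosphorylation, had 22.1, 16.7, 17.1 and 11.7 CPM in null replicates 1 to 4, against 9.96, 10.3 and 15.0 CPM in wild-type replicates 2 to 4. All null libraries but replicate 4 exceeded every wild-type library. Its log2 fold change of 0.52 had a 95% interval that just included 0, from -0.0017 to 1.03 (edgeR adjusted p = 0.206).

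Ccng2, cyclin G2, a relative of Ccng1, rose in null canals. It reached 90.6 ± 25.4 CPM in null, against 34.6 ± 7.30 CPM in wild-type canals (log2 ratio 1.38, SE 0.244, edgeR adjusted p = 0.00677), and was called with any 1 library left out. Ccng2 is known as a target of FOXO factors rather than of p53. Its difference from Ccng1 was not tested. Trp53inp2, the relative of Trp53inp1, had 0.05 (SE 0.146) and Mdm4, the partner of Mdm2, 0.33 (SE 0.226), neither of which passed.

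**Figure D2:**
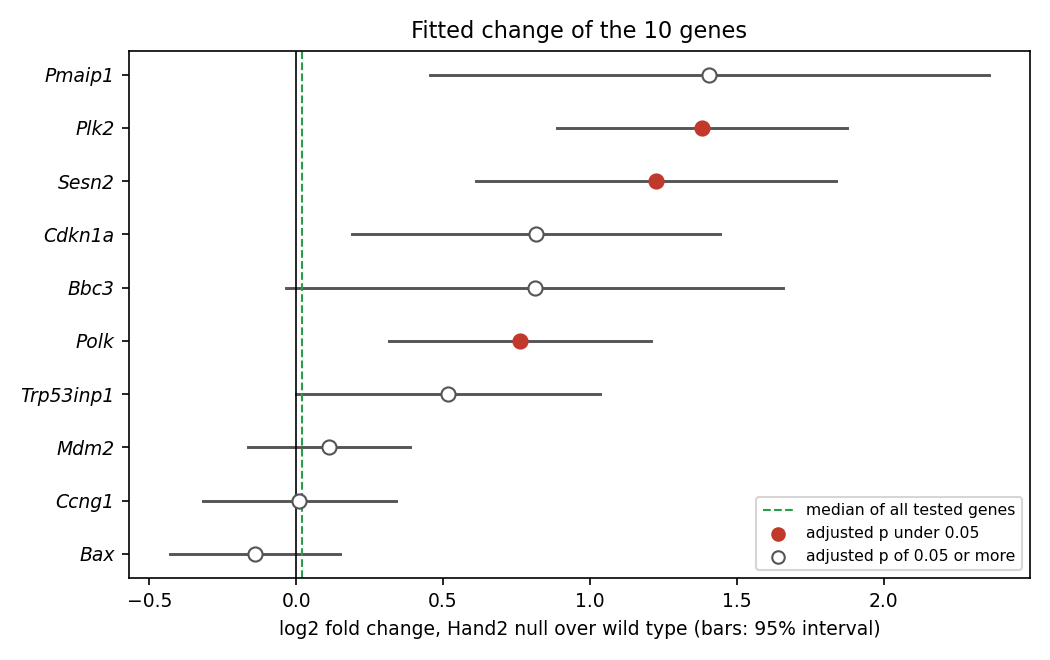
Fitted log2 fold change of Hand2 null over wild type (horizontal axis) for the 10 genes, with 95% intervals as bars, filled points for adjusted p under 0.05 and a dashed line at the median of all tested genes. Plk2, Sesn2 and Polk are filled, Pmaip1 has the highest estimate and the widest interval, and the intervals of Mdm2, Ccng1 and Bax are the narrowest.

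Sesn2, a sestrin that senses leucine and restrains mTORC1, rose in null canals. It had 7.20, 9.99, 9.14 and 5.98 CPM in null replicates 1 to 4, against 4.73, 2.21 and 3.23 CPM in wild-type replicates 2 to 4. The groups did not overlap, and the lowest null library was 1.27 times the highest wild-type library. The mean was 8.08 ± 1.82 CPM in null and 3.39 ± 1.26 CPM in wild type (SD, n = 4 and 3; log2 ratio 1.22, SE 0.281, edgeR adjusted p = 0.0253), or 2.34-fold. The call was lost without null pool 1 (adjusted p = 0.0618), null pool 2 (0.0724), wild-type pool 3 (0.108) or wild-type pool 4 (0.0610), with log2 fold changes between 1.00 and 1.54 over all 7 such fits.

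The other sestrins were not called. Sesn1, the sestrin best known as a p53 target, had 19.99 ± 3.07 CPM in null and 13.4 ± 3.74 CPM in wild-type canals (log2 ratio 0.57, SE 0.206, edgeR adjusted p = 0.116). Sesn3, a FOXO target, had 0.36 (SE 0.276).

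Polk encodes DNA polymerase kappa, which copies past bulky lesions. It had 11.8, 19.0, 14.0 and 14.1 CPM in null replicates 1 to 4, against 6.84, 8.30 and 10.5 CPM in wild-type replicates 2 to 4, without overlap. The log2 fold change was 0.76 (SE 0.205, edgeR adjusted p = 0.0489), or 1.69-fold, just inside the threshold. It passed without null pool 3 or wild-type pool 4, and not without null pool 1 (adjusted p = 0.0730), null pool 2 (0.121), null pool 4 (0.0575), wild-type pool 2 (0.224) or wild-type pool 3 (0.165), nor with upper-quartile scaling (0.0550).

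Polymerases of the same family were measured beside it. Poli, DNA polymerase iota, had 10.8 ± 1.62 CPM in null and 6.88 ± 1.72 CPM in wild type, without overlap, and did not pass (log2 fold change 0.64, SE 0.211, edgeR adjusted p = 0.0928). Polh, polymerase eta, and Rev1 had 0.36 (SE 0.370) and 0.29 (SE 0.186).

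None of the death genes of the set was called by edgeR. Bax, the pore-forming protein, was abundant at 121, 119, 134 and 109 CPM in null replicates 1 to 4, against 138, 134 and 123 CPM in wild-type replicates 2 to 4. The groups overlapped, and it was the only one of the 10 genes with an estimate below 0 (log2 fold change -0.14, 95% interval -0.43 to 0.15). Its upper bound lay below the log2 fold change of each of the 3 called genes, which have intervals of their own. The differences of Bax from these genes were not tested.

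Bbc3 encodes PUMA, a BH3-only activator. It had 1.53, 1.77, 1.88 and 0.899 CPM in null replicates 1 to 4, against 1.03, 0.657 and 0.860 CPM in wild-type replicates 2 to 4. Null replicate 4 again lay within the wild-type range. Its log2 fold change was 0.81 (SE 0.388, 95% interval -0.03 to 1.66, edgeR adjusted p = 0.223), resting on 35 to 58 reads per null library and 19 to 46 per wild-type library.

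Pmaip1 encodes NOXA, another BH3-only protein. It had 0.937, 3.29, 2.37 and 1.67 CPM in null replicates 1 to 4, against 0.825, 0.588 and 0.860 CPM in wild-type replicates 2 to 4. The groups did not overlap, but null pool 1 was only 1.09 times the highest wild-type library. The log2 fold change of 1.41 was the highest of the 10 (SE 0.436, 95% interval 0.46 to 2.36) and did not pass (edgeR adjusted p = 0.0759). DESeq2 called it (1.39, adjusted p = 0.0226). Counts were 35 to 108 reads in null pools, against 17 to 37 in wild-type pools.

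**Figure D3:**
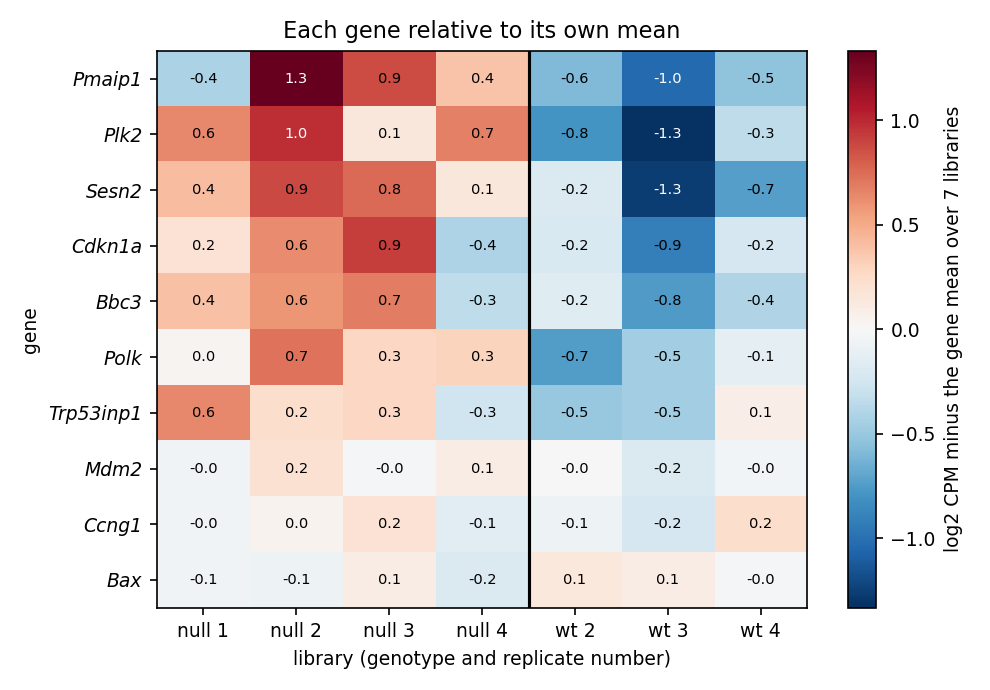
Log2 CPM of each of the 10 genes (rows, ordered by fold change) minus its mean over the 7 libraries (columns, Hand2 null left of wild type), with red above and blue below the mean and values rounded to 1 decimal. Null replicate 4 is below the mean for Cdkn1a, Bbc3, Trp53inp1, Bax and Ccng1. Wild-type pool 3 is the lowest wild-type library for 7 of the 10 genes.

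Some libraries were the highest or lowest of their group more often than others in the 10 genes. Among null canals, replicate 2 was highest for 5 of the 10 genes and replicate 3 for 4, while replicate 4 was lowest for 6 and highest for 0. Among wild-type canals, replicate 3 was lowest for 7 of the 10 and highest for 0. These counts used CPM without further scaling between libraries. How often each library took these places over all tested genes was not counted. Profiles were compared after skipping symbols that begin with Gm and a digit, Mir, Snor, n-R or Rn, or that end in Rik. That rule was meant for predicted genes and small RNAs and can also skip protein-coding genes. Among the tested genes left, Bbc3 had the profile nearest to that of Cdkn1a. Its root mean square difference was 0.151 in centred log2 CPM over 7 libraries, where Cdkn1a itself varied by 0.584. Mvp was as near to 3 decimals (0.151), and Kcne1 (0.169) came next. Bbc3 rested on 35 to 58 reads per null library and 19 to 46 per wild-type library, so its first place is uncertain. The genes nearest to Plk2 under the same rule were Calcoco1 (0.163), Ndrg2 (0.170) and Eltd1 (0.172). Profiles were matched over both genotypes, so a gene near to Plk2 shares much of its fold change by selection.

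Per kilobase of exon, Bax was the most abundant at 76.7 ± 6.37 CPM per kilobase in null and 83.5 ± 4.96 in wild type. In null canals Plk2 came second, at 37.2 ± 8.49, ahead of Ccng1 at 19.0 ± 1.87, whereas in wild type Plk2 at 14.1 ± 4.67 and Ccng1 at 18.6 ± 3.08 overlapped within their SD. Mdm2 followed at 9.37 ± 0.767 in null and 8.54 ± 0.574 in wild type, and Cdkn1a at 8.69 ± 3.24 in null, within the spread of Mdm2, and 4.89 ± 1.25 in wild type, below it. Polk (2.65 ± 0.550 in null and 1.54 ± 0.332 in wild type), Trp53inp1 (2.61 ± 0.652 and 1.81 ± 0.437) and Sesn2 (2.32 ± 0.523 and 0.975 ± 0.364) came next. In null canals their means lay within the SD of each other. In wild type Polk and Trp53inp1 did so, while the mean of Sesn2 lay below the SD of both. The BH3-only genes were the scarcest, with Pmaip1 at 0.757 ± 0.367 in null and 0.277 ± 0.0541 in wild type, and Bbc3 at 0.715 ± 0.207 and 0.399 ± 0.0868 (CPM per kilobase, SD, n = 4 null and 3 wild type throughout). The means of these last genes lay within the SD of each other in null canals, and in wild type each lay outside the SD of the other.

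The p53 transcript itself was not called. Trp53 had 178 ± 33.0 CPM in null and 186 ± 27.1 CPM in wild-type canals (log2 ratio -0.08, SE 0.165, 95% interval -0.44 to 0.28). Of 16 tested genes for p53 and its regulators, none was called in either direction by edgeR, with 2 at an unadjusted p under 0.05, where 24.4% of all tested genes had one. Usp7, which removes ubiquitin from MDM2 and p53, had -0.14 (SE 0.193). The checkpoint kinases Atm and Atr had 0.03 (SE 0.206) and 0.46 (SE 0.179), Chek1 and Chek2 -0.11 (SE 0.146) and 0.01 (SE 0.187). The phosphatase Ppm1d, itself a p53 target that shuts the pathway off, had 7.93 ± 2.71 CPM in null and 12.7 ± 3.16 CPM in wild type, and did not pass (-0.70, SE 0.284, edgeR adjusted p = 0.155).

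Of 28 other p53 targets tested, 2 rose and none fell, where 4.11% of all tested genes were called higher and 2.13% lower, with 17 estimates above 0 and a median log2 fold change of 0.17, against 0.02 for all tested genes. Rprm, reprimo, a mediator of arrest in G2, rose to 3.07 ± 1.01 CPM in null, against 0.968 ± 0.246 CPM in wild-type canals (log2 ratio 1.64, SE 0.353, edgeR adjusted p = 0.0189). Pltp, the phospholipid transfer protein, rose to 5.04 ± 0.514 CPM, against 1.80 ± 0.813 CPM (1.46, SE 0.321, adjusted p = 0.0210), and Pltp is also known as a target of lipid-sensing nuclear receptors. Rprm lost its call without wild-type pool 2 or 3 (adjusted p of 0.0919 to 0.0955), and Pltp without null pool 1 or 2 or wild-type pool 2 or 3 (0.0525 to 0.0615).

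The log2 fold changes of the 26 targets not called ran from -0.52 for Perp (SE 0.263) to 1.13 for Ephx1 (SE 0.456). Those below 0 included Gtse1 (-0.12, SE 0.198), Zmat3 (-0.24, SE 0.228), Phlda3 (-0.27, SE 0.205), Aen (-0.33, SE 0.174) and Gadd45a (-0.09, SE 0.263). Those above 0 included Btg2 (0.45, SE 0.164), Cd82 (0.75, SE 0.298), Eda2r (0.75, SE 0.322) and Sesn1. These genes were named after their values were seen.

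**Figure D4:**
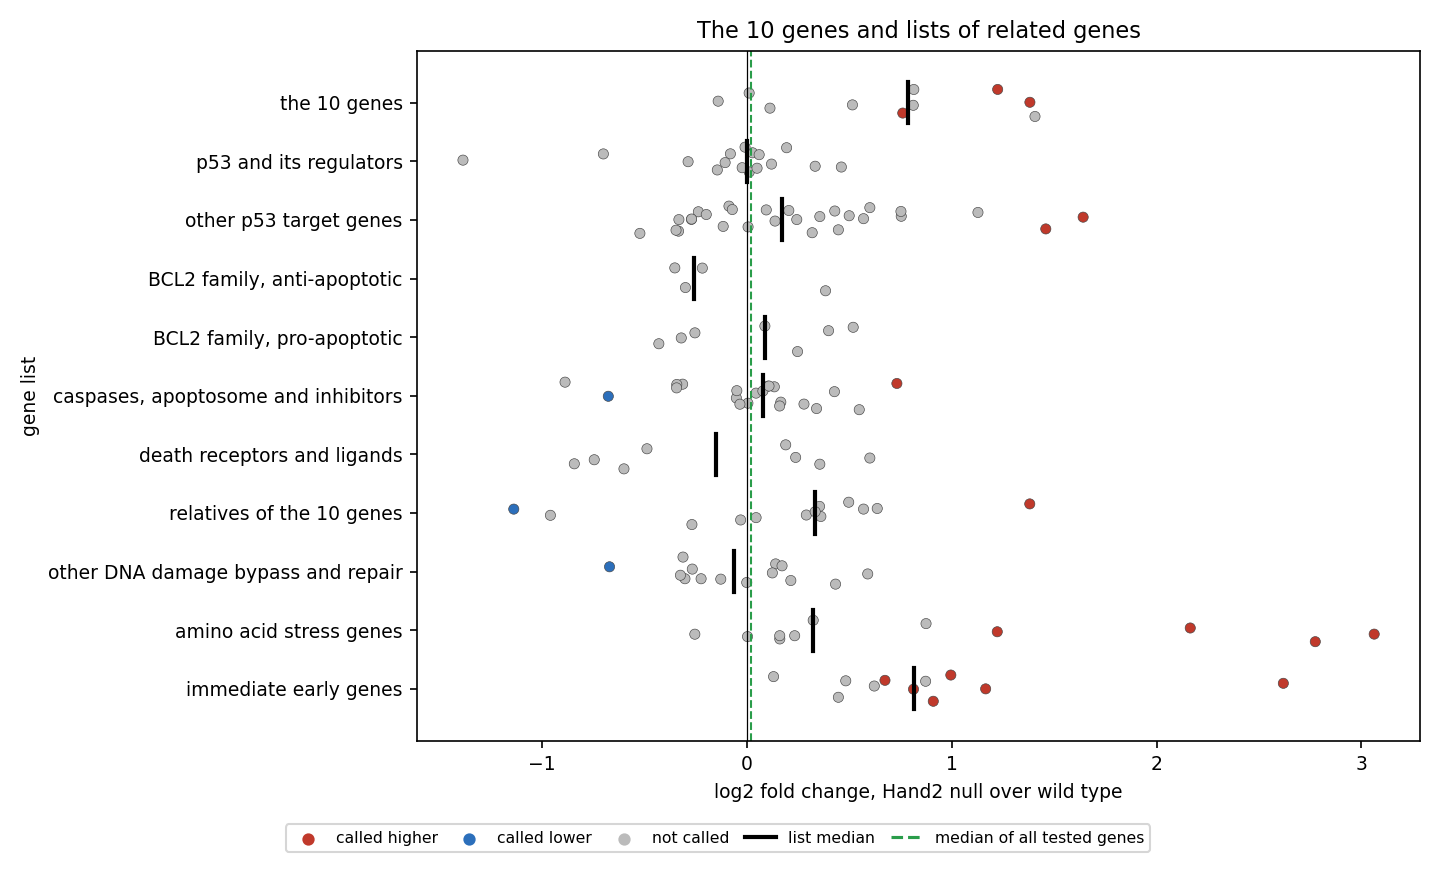
Log2 fold change of Hand2 null over wild type (horizontal axis) of each tested gene in the set and in 10 lists of related genes (rows), red for called higher, blue for called lower, grey for not called, with a black bar at each list median and a dashed line at the median of all tested genes. Called genes are most frequent in the amino acid stress and immediate early rows and absent from the rows of p53 and its regulators, of both BCL2 groups and of the death receptors.

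Apoptosis genes beyond the set were counted in the same fit, in which 6.24% of all tested genes were called. Of 4 tested anti-apoptotic BCL2 genes and 7 pro-apoptotic ones, none was called by edgeR, with 0 and 2 at an unadjusted p under 0.05 (24.4% of all tested genes). Bcl2l1, which encodes BCL-XL, had 109 ± 30.6 CPM in null and 82.0 ± 28.1 CPM in wild-type canals (log2 ratio 0.38, SE 0.233), and Mcl1 65.7 ± 19.1 CPM against 83.1 ± 6.47 CPM (-0.35, SE 0.211). Mcl1 was called lower without null pool 3 (adjusted p = 0.0446). Bad, a sensitiser of apoptosis, had 29.9 ± 3.22 CPM in null and 39.7 ± 1.03 CPM in wild type, with no overlap, and did not pass (-0.43, SE 0.140, edgeR adjusted p = 0.0874). Bok, a relative of Bax, had -0.32 (SE 0.169). Of the 7 pro-apoptotic genes, however, 4 had estimates above 0 and 3 below, with a median log2 ratio of 0.09. Bcl2l11 had 17.2 ± 2.36 CPM in null and 11.9 ± 1.24 CPM in wild type, also with no overlap. It lay in the other direction from Bad and did not pass either (0.52, SE 0.184, edgeR adjusted p = 0.110).

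Of 21 caspase, apoptosome and inhibitor genes, 1 rose and 1 fell, where 4.11% of all tested genes were called higher and 2.13% lower. Birc2, the ubiquitin ligase cIAP1, rose to 29.2 ± 6.02 CPM in null, against 17.3 ± 2.85 CPM in wild-type canals (log2 ratio 0.73, SE 0.191, edgeR adjusted p = 0.0439). The groups overlapped at null pool 3 and wild-type pool 4, and the call was lost without null pool 1, 2 or 4 or wild-type pool 2 or 3 (adjusted p of 0.0702 to 0.208). Cycs, cytochrome c, which carries electrons in respiration and triggers the apoptosome once released, fell to 1921 ± 177 CPM in null, against 3033 ± 217 CPM in wild type (-0.68, SE 0.138, adjusted p = 0.0148). Cycs lost its call without wild-type pool 2 or 3 (0.0698 to 0.0962). Cycs has processed copies elsewhere in the genome, and reads that align to several places are not counted, so its level is uncertain.

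Groups of genes that share other known inducers with Sesn2 or Plk2 were counted beside the set. Both groups were chosen with earlier results of these data known. Of 11 amino acid stress genes, 4 rose and none fell, where 4.11% of all tested genes were called higher and 2.13% lower. Their median log2 fold change was 0.32. Trib3, a pseudokinase induced by ATF4, reached 28.3 ± 5.51 CPM in null, against 3.37 ± 1.19 CPM in wild type (3.06, SE 0.257, edgeR adjusted p = 7.69e-05). Chac1 (2.77, SE 0.360), the lipoprotein receptor Vldlr (2.16, SE 0.289) and Ddit3, which encodes CHOP (1.22, SE 0.261), were the others. Ddit3 lost its call without null pool 1 or wild-type pool 2 or 3 (adjusted p of 0.0629 to 0.0996). The synthetase Asns (0.16, SE 0.159) and Psat1 (0.00, SE 0.141), enzymes of amino acid synthesis under ATF4, were not called, and Atf4 itself had 0.32 (SE 0.183).

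Of 11 tested immediate early genes, 6 rose and none fell, where 4.11% of all tested genes were called higher and 2.13% lower. Their median log2 fold change was 0.81. Ier3 reached 115 ± 33.2 CPM in null, against 18.6 ± 2.75 CPM in wild type (2.62, SE 0.243, edgeR adjusted p = 0.000149). Nr4a1 (1.17, SE 0.184), Zfp36 (0.91, SE 0.146) and Fos (1.00, SE 0.167) rose as well, and these 4 kept their calls with any 1 library left out. Egr1 (0.62, SE 0.251) and Ier2 (0.13, SE 0.259) were not called. Whether either group moves with Sesn2 or Plk2 for a shared reason was not tested.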

How the data were processed

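RNA from 7 pools of atrioventricular canals was depleted of ribosomal RNA, converted to cDNA, amplified for 8 cycles of PCR and sequenced as single reads of 50 nt, unstranded, per the labels' protocols. The deposited files hold raw read counts per gene symbol, made by the authors with TopHat2 2.0.13, HTSeq and SAMtools on mm9, per the submitters' processing notes. The annotation used for counting is not given in the sources used here. The 5 summary rows of each file were left out: reads in no gene were 7.31% to 14.21% and ambiguous reads 1.46% to 1.69% of all counted reads.

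Counts were tested in edgeR 4.0.16 (R 4.3.3) by quasi-likelihood with TMM scaling, the default low-count filter (minimum count 10) and a model of genotype alone, with Benjamini-Hochberg adjustment over all 14290 tested genes. SE was taken as log2 fold change over √F, and intervals are 95%. CPM were computed over gene rows. DESeq2 1.42.0, other scalings, other filters, leaving out each library and a replicate block were alternatives. The scripts were tested on simulated counts.

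The 10 genes and all lists were chosen with earlier results of these data known. Named were the 10 genes, Hand2, up to 4 called genes per list (or the 2 most abundant where none was called) and the 3 nearest profiles of Plk2, Sesn2, Polk and Cdkn1a. Relatives of the 10 genes and a few further list members are given besides, after their values were seen. Btg2, Fas, Tnfrsf10b, Sesn1 and Mdm4 stand in more than 1 list. Exon lengths came from GENCODE M21 and windows from RefSeq, both GRCm38, matched by symbol. In GENCODE M21, Cdkn1a shares 273 exon bases with an opposite-strand transcript and Bax 192 with Gm45808, neither counted separately here. PCR reads without molecular identifiers are not independent molecules, so floors cover counting error only.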

Additional observations from a re-analysis of the deposited data

How the results depend on the processing

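With DESeq2, 1015 genes were higher and 811 lower, and 5 of the 10 genes were higher, adding Cdkn1a and Pmaip1 to Plk2, Sesn2 and Polk. Leaving out 1 library at a time gave 210 to 946 genes higher, 46 to 652 lower and 1 to 3 of the 10 genes higher. Without null replicate 2, whose share of reads outside genes was the highest, together with wild-type replicate 4, the richest in haemoglobin (chosen after seeing the data), 298 genes were higher, 123 lower and 1 of the 10, Plk2, higher. The estimate of Ccng1, near 0 throughout, was -0.0043 with RLE scaling, -0.0086 with upper-quartile scaling and -0.0043 with DESeq2, and ran from -0.075 to 0.13 with 1 library left out. No other gene of the 10 changed sign under any alternative. Same-numbered libraries of the 2 genotypes did not deviate together in every pair (correlations of -0.0758, 0.266 and 0.155 across genes for numbers 2, 3 and 4). Differently numbered libraries gave -0.247 to 0.137. The numbers were not taken as pairs, but these values cannot exclude that same-numbered pools were handled together. With the replicate block on the 6 libraries of numbers 2 to 4, 761 genes were higher and 578 lower, and 4 of the 10 were higher, with Pmaip1 added (adjusted p = 0.0375). The same 6 libraries without the block gave 284 and 90. The filter alternatives left the calls of the 10 genes as they were. Bbc3 and Pmaip1 rest on the fewest reads of the 10, with 17 to 108 per library.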

Other observations

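Receptors of the extrinsic death route gave no call. Of 8 tested death receptor and ligand genes, none was called by edgeR and 4 had an unadjusted p under 0.05, against 24.4% of all tested genes. Tnfsf10, the ligand TRAIL, had 7.30 ± 0.773 CPM in null and 12.0 ± 3.39 CPM in wild-type canals (log2 ratio -0.74, SE 0.213, edgeR adjusted p = 0.0588), and Tnfrsf21, death receptor 6, had 5.04 ± 1.57 CPM against 8.89 ± 1.04 CPM (-0.84, SE 0.256, adjusted p = 0.0715). Ltbr, the lymphotoxin beta receptor, had 12.6 ± 1.24 CPM against 17.5 ± 2.22 CPM (-0.49, SE 0.168, adjusted p = 0.103). In these 3 of the 8 genes every null pool lay below every wild-type pool, as in 10.3% of all tested genes. In Casp8, the initiator caspase of this route, every null pool also lay below every wild-type pool, at 6.79 ± 2.44 CPM in null and 12.4 ± 1.56 CPM in wild type (-0.89, SE 0.248, adjusted p = 0.0550). These 4 genes were singled out after their values were seen. Receptors that p53 induces had estimates above 0, namely Tnfrsf10b (0.36, SE 0.165) and Fas (0.60, SE 0.323), and did not pass. The abundant Tnfrsf1a had 0.19 (SE 0.208).

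Of 14 genes of DNA damage bypass and repair, 1 was called, where 6.24% of all tested genes were called in either direction. Pcna, the sliding clamp on which polymerase kappa works, fell to 192 ± 3.40 CPM in null, against 302 ± 26.5 CPM in wild-type canals (log2 ratio -0.67, SE 0.123, edgeR adjusted p = 0.00825), and lost its call without wild-type pool 2 or 3 (0.0624 to 0.0698). Pcna is itself a p53 target as well as a replication gene, and like Cycs it has processed copies.

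With the same symbols skipped as for Cdkn1a, the profiles nearest to Sesn2 were those of Rslcan18, Mlph and H2-Q10. Their root mean square differences were 0.200, 0.208 and 0.210 in centred log2 CPM over 7 libraries, where Sesn2 varied by 0.728. The profiles nearest to Polk were those of Dusp3, Afap1l1 and Dpf1 (0.116, 0.128 and 0.129, where Polk varied by 0.459).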
